A study of Mus musculus with 12 samples.

Results

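Solute carriers are membrane proteins that move ions, nutrients, metals and metabolites across the plasma membrane, the lysosome and the inner mitochondrial membrane. Their genes are numbered by family, so that Slc39 genes encode zinc importers and Slc25 genes encode mitochondrial carriers. Macrophages use them to take up arginine for nitric oxide synthesis, to withhold iron, zinc and manganese from microbes or recycle them, and to pass peptides and nucleosides out of lysosomes. The genes described here have a symbol made of Slc, a number, the letter a and a further number, and have at least 10 raw counts in each of the 12 libraries. Slc2a1, Slc7a11, Slc16a1, Slc16a3, Slc22a5, Slc25a1 and Slc25a20 were left out by name. The rule gave 176 solute carrier genes of 48 families among the 16699 genes listed in the tables of both states. Such symbols numbered 215 in either table, of which 194 were in both, and 11 of those fell under the count minimum.

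The cells were J774A.1, a mouse macrophage line, as 3 WT and 3 ACAT1 KO lines. ACAT1 KO cells had been transfected with Cas9 and a guide to the fourth exon of Acat1, a mitochondrial acetyl-CoA acetyltransferase, and WT cells with the same GFP-bearing vector without a guide. Both were then sorted and grown as clonal populations. RNA was sequenced without stimulation (vehicle) and 2 hours after 100 ng/mL LPS, the ligand of TLR4, so every group held 3 libraries. The genotype comparison asks what loss of ACAT1 does to transcripts in each state, and differences between clones cannot be told apart from it. The p-values measure the spread between these lines, and in bulk RNA a change in the share of responding cells and one in RNA per cell cannot be told apart.

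The deposited values were whole-number counts per gene, 56948593 to 167280149 per library, of which 1.15 to 1.26% fell on the solute carriers. Acat1 had 108, 107 and 80.8 CPM (counts scaled to library size) in the 3 unstimulated WT libraries and 28.9, 25.5 and 26.1 CPM in ACAT1 KO, and 85.4, 95.4 and 65.0 against 19.9, 18.5 and 18.9 CPM after LPS, so the genotype labels held in every library. All 8 macrophage markers examined, among them Csf1r, Cd68 and Spi1, were listed. No epithelial marker of 3 was listed, and 1 of 3 T cell and 1 of 3 B cell markers were, each under 1 CPM. Of 3 fibroblast markers 1 was listed, Pdgfra, at 1.14 to 1.67 CPM without LPS, 5.53 to 6.48 CPM in WT and 11.3 to 12.95 CPM in ACAT1 KO cells after LPS, and its part in the results was not tested. Without LPS, WT replicates 1 and 2 and replicate 2 of ACAT1 KO were the shallowest 3 libraries, and 0.641 to 0.733% of their counts lay on noncoding genes whose exons overlap those of an opposite gene, against 0.451 to 0.510% in the other 9 libraries. The exons of 47 solute carriers overlap a gene of the other strand, and whether counting used strand was not stated, so those genes are uncertain to that extent.

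Levels between genes were compared as CPM per kb of exon, averaged over the 12 libraries. They ran from 0.0267 to 414 CPM per kb with a median of 5.53. Slc25a5, which exchanges ADP for ATP across the inner mitochondrial membrane, was the most abundant at 414 CPM per kb, although it has near-identical copies in the genome between which reads could be split. Slc15a3, a lysosomal histidine and peptide transporter, was next at 151 CPM per kb. Slc2a6, a glucose transporter family member of lysosomes, followed with 129 CPM per kb, and Slc3a2, the heavy chain that carries several amino acid transporters to the cell surface, with 126 CPM per kb. Slc25a4, the other abundant ADP/ATP carrier, Slc25a39, Slc7a5 and Slc39a1 came after these, between 119 and 79.6 CPM per kb. At the other end, 13 of the 176 genes averaged under 1 CPM.

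LPS changed most of the solute carriers. In WT cells 63 were higher and 67 lower after 2 hours (edgeR's quasi-likelihood test, Benjamini-Hochberg adjusted p under 0.05 over all 16535 genes tested), while 29.3% of all genes tested were higher and 28% were lower, 57.4% in all. At an unadjusted p under 0.05 137 solute carriers changed, 77.8% against 61.5% of all genes. Rises made up 35.8% and falls 38.1% of the solute carriers. Here and below, all genes tested are those passing edgeR's expression filter, which is looser than 10 counts in every library. The solute carriers were thus held to higher counts than the genes beside them, and the part of this in their shares was not tested. Changes of more than 1 on the log2 scale numbered 22 higher and 16 lower, 12.5% and 9.09% of the solute carriers, beside 10.5% and 9.86% of all genes. In ACAT1 KO cells 54 were higher and 76 lower, where the background was 29.5% and 31.2%, or 60.7% in all. Libraries with and without LPS did not overlap at 73.3% of the solute carriers in WT and 81.8% in ACAT1 KO cells. The shares of all genes were 61% and 67.8%. The median log2 fold change of the solute carriers was -0.01 in WT and -0.14 in ACAT1 KO cells, and that of all genes was -0.02 and -0.03. The balance of rises and falls depended on the scaling, since upper-quartile normalization gave 46 higher and 87 lower in WT and 44 higher and 88 lower in ACAT1 KO cells, with the median of all genes at -0.23 in WT and -0.17 in ACAT1 KO cells.

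Carriers of metal ions rose most often. Of 27 such genes 17 were higher and 1, the magnesium transporter Slc41a3, was lower with LPS in WT cells, with a median log2 fold change of 0.50, and 15 were higher and 2, Slc41a3 and Slc39a3, lower in ACAT1 KO cells, with a median of 0.58. Under upper-quartile normalization these counts were 14 and 5 in both genotypes, with medians of 0.29 and 0.43. Among the 12 Slc39 genes, which bring zinc into the cytosol, 8 were higher and none lower in WT cells, and of the 6 Slc30 genes, which move zinc out or into vesicles, 4 were higher, Slc30a1, Slc30a4, Slc30a6 and Slc30a7, and none lower. With upper-quartile normalization the Slc39 genes gave 6 higher and 2 lower in WT cells and the Slc30 genes 3 and 2. The carboxylate carriers moved the other way, with 5 of 6 lower in WT and 6 of 6 lower in ACAT1 KO cells. These were the monocarboxylate transporters Slc16a6, Slc16a7, Slc16a13 and Slc16a14 and the dicarboxylate transporter Slc13a2, joined in ACAT1 KO cells by Slc13a3. With the line as a block Slc13a3 was also lower in WT cells, at -0.54 (adjusted p = 3.14e-04), as was Slc39a3 at -0.17 (adjusted p = 0.0329). Mitochondrial carriers were more often lower, with 13 higher and 19 lower of 37 in WT cells, as were those of vitamins, nucleosides and organic ions, with 5 higher and 11 lower of 21. Slc19a2, Slc22a4, Slc23a2, Slc23a3 and Slc29a3 were the 5. Across the alternative fits the mitochondrial carriers gave 10 to 13 higher and 17 to 22 lower in WT cells. The vitamin, nucleoside and organic ion class gave 3 to 5 higher and 4 to 12 lower, so its lean depended on the fit. Amino acid carriers were evenly split, with 9 higher and 9 lower of 24, or 7 and 10 with upper-quartile normalization. Classes were assigned from the families' known substrates, and no test of a class was made.

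**Figure D1:**
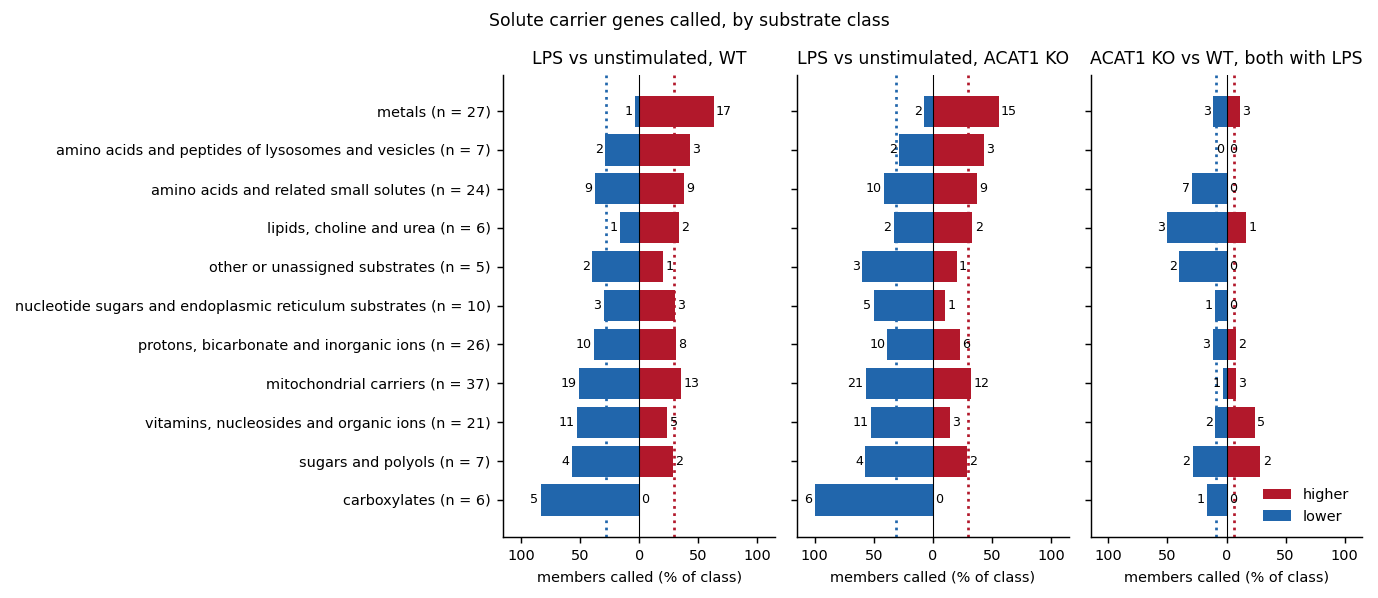
Share of each substrate class (y axis, number of genes in brackets) that was called higher (red, to the right) or lower (blue, to the left) at adjusted p under 0.05, in percent of the class, with the number of genes at each bar end, for LPS in WT, LPS in ACAT1 KO and ACAT1 KO against WT after LPS, with dotted lines at the share of all genes tested. Metals reach to the right with 17 of 27 higher in WT, and carboxylates to the left with 5 of 6 lower.

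The promoters of 4 LPS-responsive carriers are shown with matches to letters that only resemble sites of NF-kB, the main transcription factor downstream of TLR4. The pattern leaves 4 bases free, so a match need not be an NF-kB site. Sequences are from RefSeq on GRCm38.p6, run 5′ to 3′ along the gene's strand from 250 bases before to 50 bases after the start, and have capitals where a 10-base motif matches on either strand, GGGA and CC with any 4 bases between them. The first 3 hold 1 match each, and Slc31a2, whose rise in WT cells was close to that of Slc49a4, holds none.
Slc39a2, chr14:51893360-51893659, plus strand: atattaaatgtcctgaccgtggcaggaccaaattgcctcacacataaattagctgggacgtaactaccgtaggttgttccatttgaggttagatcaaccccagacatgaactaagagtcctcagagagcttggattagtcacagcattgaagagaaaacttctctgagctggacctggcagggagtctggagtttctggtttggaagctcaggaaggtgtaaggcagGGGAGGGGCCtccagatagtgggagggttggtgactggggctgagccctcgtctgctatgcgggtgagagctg
Slc2a6, chr2:27027949-27028248, minus strand: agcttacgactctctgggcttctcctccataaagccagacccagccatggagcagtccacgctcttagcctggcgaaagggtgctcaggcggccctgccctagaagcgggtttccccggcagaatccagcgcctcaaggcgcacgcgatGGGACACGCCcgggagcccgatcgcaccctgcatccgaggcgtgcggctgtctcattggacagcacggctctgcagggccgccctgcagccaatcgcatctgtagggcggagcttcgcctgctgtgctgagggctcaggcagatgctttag
Slc49a4, chr16:35769321-35769620, minus strand: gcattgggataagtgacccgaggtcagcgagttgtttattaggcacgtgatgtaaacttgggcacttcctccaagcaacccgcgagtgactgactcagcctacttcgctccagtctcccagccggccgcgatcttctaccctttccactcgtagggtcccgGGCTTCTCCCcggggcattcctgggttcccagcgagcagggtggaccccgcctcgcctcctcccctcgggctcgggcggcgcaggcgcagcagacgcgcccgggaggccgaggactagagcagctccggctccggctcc
Slc31a2, chr4:62286179-62286478, plus strand: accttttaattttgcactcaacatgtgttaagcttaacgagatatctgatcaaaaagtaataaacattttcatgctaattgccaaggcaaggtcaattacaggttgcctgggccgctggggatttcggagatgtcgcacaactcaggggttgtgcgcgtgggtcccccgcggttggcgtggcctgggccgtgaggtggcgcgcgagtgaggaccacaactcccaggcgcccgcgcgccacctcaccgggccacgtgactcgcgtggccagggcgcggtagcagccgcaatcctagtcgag
The motif is present in a promoter of 22.9% of the 27025 genes with an entry. Among the solute carriers 132 genes had an entry and 42 of them, 31.8%, held it. Of the 22 genes that rose by more than 1 in WT cells 14 had an entry and 8 held the motif, as did 3 of the 9 with an entry among the 16 that fell by as much. The interferon-response motif, GAAA and GAAA with any 2 bases between them, also searched on both strands and able to overlap the first, was found in 3.99% of all genes, in 3 of the 132 and in none of the 14. A match is a run of letters and not evidence of binding.

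Slc7a2, the inducible arginine importer CAT2, had the greatest rise of the amino acid carriers. It lies on chromosome 8, 40862396 to 40922308, plus strand. WT cells held 16.2, 21.4 and 17.3 CPM without LPS and 493, 469 and 333 CPM with it, and ACAT1 KO cells 14.2, 13.3 and 12.7 and 498, 544 and 425 CPM. The lowest LPS library was more than 10-fold above the highest unstimulated one, and the WT and ACAT1 KO libraries overlapped after LPS. The log2 fold change was 4.56 (SE 0.17, adjusted p = 1.52e-09) in WT and 5.19 (SE 0.18, adjusted p = 5.72e-10) in ACAT1 KO cells. Its exons share 635 bases with Gm26584 on the other strand. Nos2, the enzyme that makes nitric oxide from arginine, rose by 8.73 on the log2 scale in WT cells. Slc7a1, the constitutive arginine importer CAT1, stood at 194, 219 and 186 CPM without and 218, 199.8 and 189.7 CPM with LPS in WT cells, and these groups overlapped. Per length, Slc7a2 went from 2.00 to 47.3 CPM per kb in WT cells while Slc7a1 was at 17.3 and 17.5 CPM per kb.

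Other amino acid carriers of the plasma membrane split within families. Slc16a10, which carries aromatic amino acids, rose from 46.5, 51.4 and 50.2 CPM to 205, 192 and 189 CPM in WT cells, a log2 fold change of 1.98 (SE 0.09, adjusted p = 9.64e-09). Of the glutamine and neutral amino acid transporters of the Slc38 family, Slc38a1 rose from 259, 235 and 229 to 727, 532 and 629 CPM in WT cells, with no overlap. Slc38a2 went from 535, 531 and 570.2 CPM to 525, 308 and 308 CPM in WT cells, where replicate 1 after LPS lay close to the unstimulated libraries, and its log2 fold change was -0.52 (SE 0.17, adjusted p = 0.0209). In ACAT1 KO cells, where no library was like this, it was -0.98 (SE 0.17, adjusted p = 0.000375). Slc1a4, an exchanger of alanine, serine and cysteine, fell from 39.6, 45.0 and 46.0 to 13.2, 9.74 and 9.16 CPM in WT cells and from 45.9, 41.5 and 41.6 to 6.97, 7.24 and 6.01 CPM in ACAT1 KO cells. The log2 fold changes were -2.03 (SE 0.13, adjusted p = 9.74e-08) and -2.67 (SE 0.13, adjusted p = 1.08e-08). Its relative Slc1a5, a glutamine importer, had a log2 fold change of -0.42 (SE 0.06, adjusted p = 0.000129) in WT cells. Slc7a5, which imports large neutral amino acids, had one of -0.50 (SE 0.08, adjusted p = 0.000135), and its partner Slc3a2 one of 0.20 (SE 0.08, adjusted p = 0.0548), which passed with the line as a block (adjusted p = 0.0259).

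Both lysosomal histidine and peptide transporters rose. Slc15a3 was at 510.5, 487 and 504 CPM in unstimulated WT cells and 1079.6, 1117 and 1110.0 CPM with LPS, and in ACAT1 KO cells at 622, 516 and 499 and 1229.6, 1179 and 1107 CPM. The states did not overlap and the genotypes overlapped in both states. The log2 fold changes were 1.14 (SE 0.08, adjusted p = 2.31e-07) in WT and 1.10 (SE 0.08, adjusted p = 2.58e-07) in ACAT1 KO cells, with 1541 bases shared with exons of Tmem132a on the other strand. Slc15a4, which is needed for endosomal Toll-like receptor signalling, rose by 1.05 (SE 0.09, adjusted p = 1.18e-06) in WT and 0.95 (SE 0.09, adjusted p = 2.41e-06) in ACAT1 KO cells.

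Among the metal carriers, the zinc importer Slc39a2 had the steepest rise, from a low base. It had 0.934, 0.946 and 0.833 CPM in unstimulated WT libraries and 17.3, 22.7 and 24.5 CPM with LPS, and 1.34, 1.31 and 0.991 and 35.4, 37.3 and 32.4 CPM in ACAT1 KO cells. The log2 fold change was 4.58 (SE 0.16, adjusted p = 9.81e-10) in WT and 4.85 (SE 0.16, adjusted p = 4.32e-10) in ACAT1 KO cells, close to that of Slc7a2. Per length it still reached only 6.24 CPM per kb in WT cells with LPS. The more abundant zinc genes rose less. Slc39a14, a zinc and iron importer, changed by 0.50 (SE 0.09, adjusted p = 0.00039) in WT cells and Slc30a1, which exports zinc at the plasma membrane, by 0.46 (SE 0.10, adjusted p = 0.00165). Mtf1, the zinc-sensing factor known to drive Slc30a1, rose by 1.499, whereas the metallothioneins Mt1 and Mt2, also its targets, had log2 fold changes of -0.09 (adjusted p = 0.523) and 0.07 (adjusted p = 0.723).

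Copper and iron carriers followed. Slc31a2, a copper transporter of intracellular vesicles, rose from 17.9, 18.6 and 18.8 to 106, 103 and 93.2 CPM in WT cells and from 18.4, 15.8 and 17.5 to 114, 113 and 109.7 CPM in ACAT1 KO cells. The log2 fold changes were 2.44 (SE 0.07, adjusted p = 2.91e-10) and 2.70 (SE 0.07, adjusted p = 1.09e-10). Slc31a1, the copper importer of the cell surface, rose by 0.94 (SE 0.07, adjusted p = 3.96e-07) in WT cells, and the copper pump Atp7a by 0.77. Slc11a2, the divalent metal transporter that releases iron from endosomes, went from 86.5, 74.4 and 78.1 to 420.1, 333 and 354 CPM in WT cells, a log2 fold change of 2.21 (SE 0.10, adjusted p = 5.87e-09), with 402 exon bases shared with a gene of the other strand. Slc11a1, its phagosomal relative, which restricts intracellular bacteria, was at 259.9, 202 and 213 and 315, 243 and 263 CPM and did not pass the test in WT cells (adjusted p = 0.14). With the line as a block it passed, at 0.28 (adjusted p = 8.42e-04). The transferrin receptor Tfrc and the ferritin chains Fth1 and Ftl1 had log2 fold changes of 0.55, 0.31 and 0.35. Of 23 pumps, storage proteins and subunits that work with solute carriers, 15 were higher and none lower with LPS in WT cells. Of all genes, 29.3% were higher and 28% lower there. In ACAT1 KO cells 12 were higher and 1, the phosphate exporter Xpr1, lower, beside 29.5% and 31.2% of all genes. The list was chosen by hand and was not recounted under upper-quartile normalization. Between genotypes after LPS 1 of the 23 differed, Nos2, at -1.12 (SE 0.22, adjusted p = 0.0158) on the log2 scale in ACAT1 KO cells. Of all genes tested, 15.1% differed.

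Sugar and vitamin carriers also diverged. Slc2a6 rose from 201, 171 and 176 CPM to 505, 533 and 574 CPM in WT cells, and Slc2a3, the high-affinity glucose importer GLUT3, fell from 67.3, 68.3 and 63.2 CPM to 26.8, 32.1 and 28.3 CPM. The log2 fold changes were 1.56 (SE 0.08, adjusted p = 2.64e-08) and -1.19 (SE 0.10, adjusted p = 6.86e-07), and neither gene's states overlapped in either genotype. Slc23a2, which imports ascorbate, rose from 54.5, 52.9 and 48.6 to 196, 181 and 241 CPM in WT cells, by 1.99 (SE 0.12, adjusted p = 5.53e-08). Slc46a3, a lysosomal transporter, had a log2 fold change of -1.88 (SE 0.19, adjusted p = 4.07e-06) and ended between 0.95 and 1.10 CPM. Slc49a4, a lysosomal membrane protein, rose by 2.41 (SE 0.08, adjusted p = 6.15e-10) in WT cells.

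**Figure D2:**
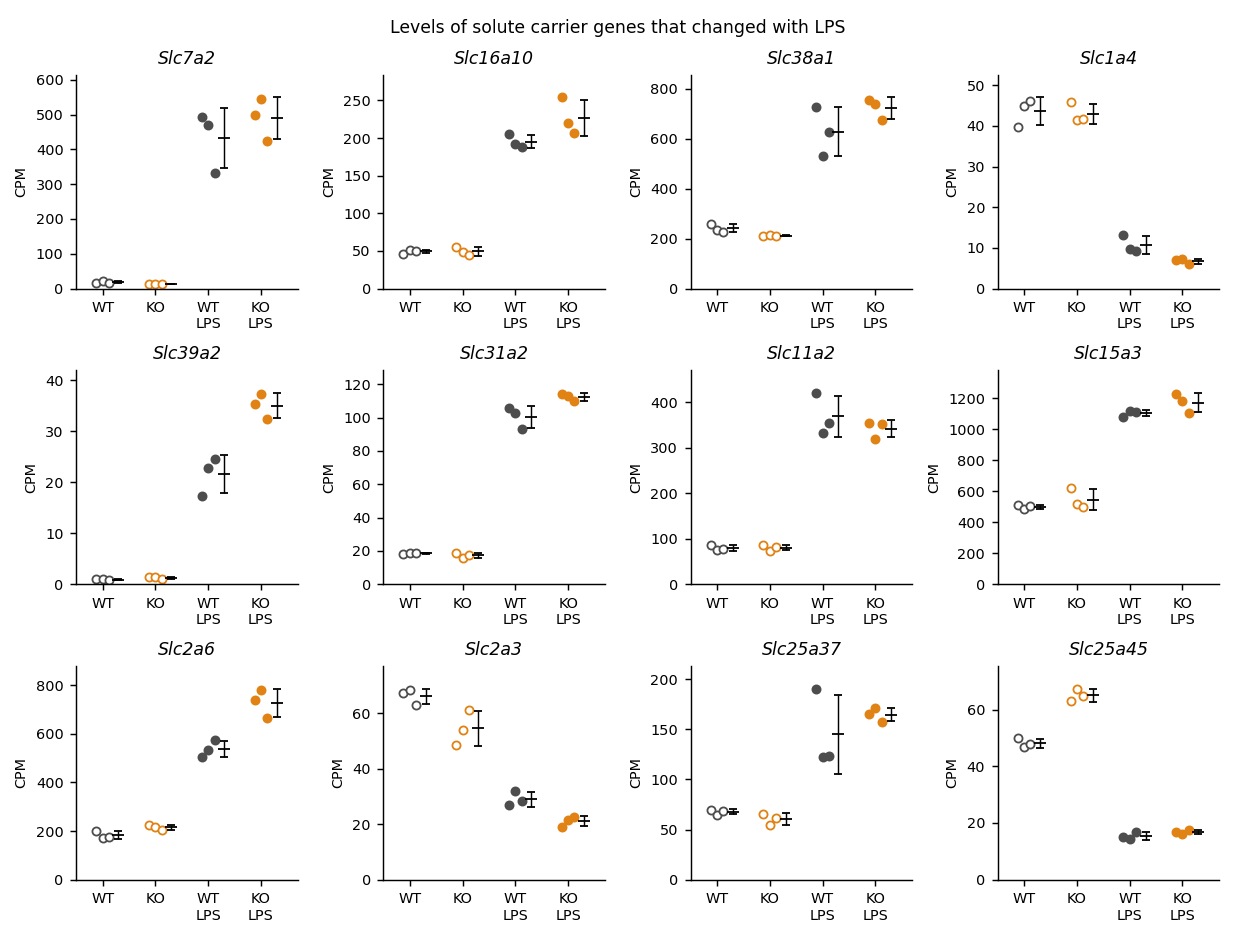
CPM (y axis, linear from 0) of 12 solute carrier genes in each library of the 4 groups, WT in grey and ACAT1 KO in orange, open circles without and filled circles with LPS, with the mean and SD of the 3 libraries as a bar beside them. Slc7a2 and Slc39a2 start near the axis and rise in every LPS library, and Slc1a4, Slc2a3 and Slc25a45 fall.

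The 37 mitochondrial carriers moved in both directions within shared roles. Slc25a37, which imports iron into mitochondria for heme and iron-sulfur clusters, rose from 69.8, 64.9 and 68.2 to 191, 122 and 123 CPM in WT cells and from 65.6, 54.3 and 61.3 to 165, 171 and 158 CPM in ACAT1 KO cells. Slc25a28, the second mitochondrial iron importer, had log2 fold changes of -0.26 (SE 0.10, adjusted p = 0.046) and -0.35 (SE 0.10, adjusted p = 0.0106) against 1.10 (SE 0.15, adjusted p = 4.26e-05) and 1.45 (SE 0.15, adjusted p = 4.11e-06) for Slc25a37. The call for Slc25a28 in WT cells was lost with the line as a block (adjusted p = 0.0547). The glutamate carrier Slc25a22 rose by 0.77 (SE 0.11, adjusted p = 5.87e-05) in WT cells and the phosphate carrier Slc25a3 by 0.23 (SE 0.07, adjusted p = 0.0175), a call lost with upper-quartile normalization (0.02, adjusted p = 0.822), while the dicarboxylate carrier Slc25a10 fell by 0.30 (adjusted p = 0.00733). Slc25a45 fell from 49.8, 46.7 and 47.9 to 14.9, 14.5 and 17.0 CPM in WT cells, a log2 fold change of -1.64 (SE 0.07, adjusted p = 3.59e-09). At lower levels, Slc25a27, an uncoupling protein family member, changed by -1.79 (SE 0.15, adjusted p = 6.64e-07) and Slc25a42, a coenzyme A carrier, by -1.38 (SE 0.19, adjusted p = 5.75e-05). Slc25a5 and Slc25a4 had log2 fold changes of 0.09 (SE 0.07, adjusted p = 0.243) and -0.17 (SE 0.06, adjusted p = 0.0217), and Slc33a1, which carries acetyl-CoA into the endoplasmic reticulum, one of -0.02 (SE 0.10, adjusted p = 0.883), or -0.23 (adjusted p = 0.048) with upper-quartile normalization.

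Ion carriers gave 8 rises and 10 falls of 26 in WT cells. Slc26a11, a sulfate and anion transporter, changed by -1.90 (SE 0.17, adjusted p = 1.58e-06) in WT cells and the phosphate importer Slc20a1 by -0.78 (SE 0.16, adjusted p = 0.000989), both on the log2 scale. Slc45a4, of the unassigned substrates, changed by -1.80 (SE 0.10, adjusted p = 2.65e-08). Slc24a5, a potassium-dependent sodium and calcium exchanger, had 2.63, 4.32 and 0.291 CPM in unstimulated WT and 0.224, 5.98 and 0.339 CPM in unstimulated ACAT1 KO libraries. Its only values above 1 CPM were thus in the 3 shallow libraries, and 921 bases of its exons overlap Myef2 on the other strand. After LPS it was 0.668, 0.294 and 0.198 and 0.314, 0.295 and 0.495 CPM, and its LPS change of -2.65 (SE 1.19, adjusted p = 0.0755) in WT cells was not called.

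The LPS response was shared between genotypes. Both genotypes called 53 solute carriers higher and 65 lower, 12 were called in WT cells alone, 12 in ACAT1 KO cells alone, 34 in neither, and none in opposite directions. Across the 176 genes, which are not independent replicates, Pearson's r of the log2 fold changes was 0.97. Neither these counts nor r were taken over all genes, of which LPS called 57.4% in WT and 60.7% in ACAT1 KO cells. The agreement is therefore not shown to be particular to solute carriers. The test of the difference, the interaction of genotype and LPS, called 1 gene, or 0.568% of the solute carriers, against 0.187% of all genes, of which 0.0484% had a positive and 0.139% a negative value. This was Slc49a4, with 7.54, 8.24 and 8.47 CPM in WT and 13.1, 11.5 and 11.2 CPM in ACAT1 KO cells without LPS, and 45.2, 41.1 and 42.3 and 36.7, 38.6 and 36.0 CPM with it. Every ACAT1 KO library lay above every WT library before LPS and below every one after it. The interaction was -0.77 (SE 0.11, adjusted p = 0.0323) on the log2 scale. It passed in 4 of 12 fits that left out a library and had an adjusted p of 0.157 without the 3 shallow libraries, at -0.69. At an unadjusted p under 0.05 the interaction reached 24 solute carriers, 13.6% against 8.92% of all genes.

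Libraries with the same replicate number deviated together across states, and with the line as a block the interaction called 5 solute carriers, 2.84% against a background of 1.74%. Slc40a1 was the 1 with a positive value. Slc40a1 encodes ferroportin, the iron exporter, and had 98.2, 75.3 and 169.7 CPM in WT cells without LPS and 93.4, 53.9 and 114 CPM with it. It was thus lower with LPS in each of the 3 pairs of same-numbered WT libraries. In ACAT1 KO cells it had 192, 126 and 142 and 302, 155 and 232 CPM and was higher in each such pair. The labels do not state that a number is the same line in both states. Its interaction was 0.97 (SE 0.48, adjusted p = 0.607) without the block and 0.93 (SE 0.15, adjusted p = 0.0269) with it. The negative ones were Slc49a4, at -0.77 (adjusted p = 0.0147), Slc66a2, at -0.59 (adjusted p = 0.0193), Slc29a3, a lysosomal nucleoside transporter, at -0.48 (adjusted p = 0.0283), and Slc25a24, a mitochondrial ATP-Mg and phosphate carrier, at -0.47 (adjusted p = 0.0325). Of the 5, Slc49a4 alone passed without the block. With it, Slc40a1 was called lower with LPS in WT cells, at -0.38 (adjusted p = 0.0151), and higher in ACAT1 KO cells, at 0.55 (adjusted p = 0.0019).

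**Figure D3:**
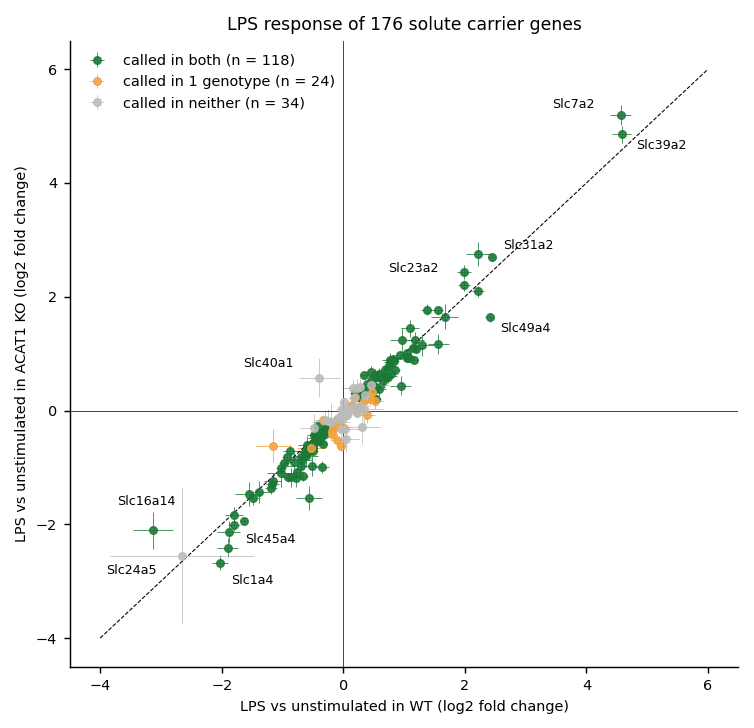
Log2 fold change with LPS in WT (x axis) against that in ACAT1 KO cells (y axis) for the 176 solute carrier genes, with SE bars and the line of equal change dashed, where green points were called in both genotypes (118), orange in 1 (24) and grey in neither (34). Slc49a4 lies below the line, Slc40a1 in the upper left with a negative value in WT and a positive one in ACAT1 KO cells, and Slc24a5 has the longest bars.

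Without stimulation few solute carriers passed the test for genotype. In ACAT1 KO cells 2 were higher, against a background of 0.742%, and 4 lower, against 1.17%, together 3.41% of the solute carriers beside 1.91% of all genes. The lower ones were Slc44a1, which imports choline, Slc37a2, a glucose 6-phosphate exchanger of the endoplasmic reticulum, the sodium and proton exchanger Slc9a4 and the monocarboxylate transporter Slc16a7. The higher ones were Slc19a2, which imports thiamine, and the mitochondrial carrier Slc25a45. Slc44a1 had 41.0, 33.3 and 26.7 CPM in WT and 16.5, 16.8 and 14.2 CPM in ACAT1 KO cells, a change on the log2 scale of -1.08 (SE 0.16, adjusted p = 0.039). Slc37a2 had 138, 130.3 and 122 CPM in WT and 85.4, 79.7 and 101 CPM in ACAT1 KO cells, a change of -0.55 (SE 0.10, adjusted p = 0.0478). Slc19a2 had 38.9, 41.0 and 46.1 and 59.9, 58.1 and 65.2 CPM, with 0.55 (SE 0.08, adjusted p = 0.039). The groups did not overlap for any of these 3, as for 38.6% of the solute carriers and 25.9% of all genes. Slc9a4, Slc16a7 and Slc25a45 had log2 fold changes of -0.62 (SE 0.10, adjusted p = 0.04), -0.54 (SE 0.08, adjusted p = 0.039) and 0.44 (SE 0.06, adjusted p = 0.0311).

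These calls were close to the threshold. None of the 6 passed without the 3 shallow libraries, nor when any 1 library other than WT replicate 3 was left out. Leaving out WT replicate 3 gave 9 calls, but Slc37a2 passed in none of the fits that left out 1 library. A fit with a term for the shallow libraries called 13. With the replicate number as a block Slc25a45, Slc16a7, Slc9a4 and Slc37a2 did not pass (edgeR adjusted p = 0.0580, 0.0512, 0.0641 and 0.0734). Without adjustment 50 solute carriers had a p under 0.05, 28.4% against 19.7% of all genes.

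After LPS more solute carriers were called between the genotypes. Each state was fitted apart, and the spread between libraries of a group (edgeR's common BCV) was 0.285 without and 0.108 with LPS. The counts of the states are thus not like for like. They lay closer together with all 12 libraries in 1 fit, as given below. In ACAT1 KO cells 16 were higher and 25 lower, where the background was 5.93% and 9.12% and the solute carriers reached 9.09% and 14.2%, together 23.3% against 15.1%. An unadjusted p under 0.05 was reached by 69 of them, 39.2% against 31.3%. The genotypes did not overlap after LPS at 43.75% of the solute carriers and 37.8% of all genes. The median log2 fold change was -0.06 against -0.0041 for all genes. In the libraries of the same lines without LPS, 15 of the 16 higher had the same sign and 1 was also called there, and 23 of the 25 lower had the same sign and 4 were also called. This agreement was not counted over all genes, so it is not shown to be particular to solute carriers. Changes over 0.5 in size numbered 5 among the higher and 13 among the lower. That cut was not counted over all genes, of which 977 were called higher and 1504 lower at any size. Calls numbered 18 without WT replicate 2 and 18, 13 and 16 without ACAT1 KO replicates 1, 2 and 3, and were 39 and 34 without WT replicates 1 and 3.

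The iron exporter Slc40a1, on chromosome 1, 45908068 to 45926523, minus strand, had the largest rise among those called. Its ACAT1 KO libraries, listed above, all exceeded its WT libraries after LPS, and the difference was 1.42 (SE 0.30, adjusted p = 0.0215) on the log2 scale. Without ACAT1 KO replicate 1 or 3 the adjusted p was 0.0658 or 0.0587, at 1.17 and 1.41. Without LPS the genotypes overlapped. Slc23a2 stood at 196, 181 and 241 CPM in WT and 384, 373 and 294 CPM in ACAT1 KO cells after LPS, a difference of 0.79 (SE 0.13, adjusted p = 0.00902). Without LPS its genotypes did not overlap either, at 0.33 (SE 0.06, adjusted p = 0.0547), which did not pass. Slc39a2 differed by 0.72 (SE 0.12, adjusted p = 0.00988), and Slc2a6 by 0.46 (SE 0.08, adjusted p = 0.00954), and Slc23a2 and these passed whichever library was left out. The zinc importer Slc39a8 was also higher, 39.5, 39.8 and 44.5 CPM in WT against 49.7, 56.8 and 53.3 CPM in ACAT1 KO cells. Slc28a2, a nucleoside importer at 0.781 to 1.73 CPM that has a near-identical copy, differed by 0.67 (SE 0.18, adjusted p = 0.041) and passed in none of the 6 fits that left out a library. Slc25a35, at under 2 CPM after LPS and with 1151 bases shared with Rangrf, differed by 0.54 (SE 0.15, adjusted p = 0.049), passed in 1 of those 6, and with the replicate number as a block its adjusted p was 0.0694.

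Amino acid carriers were lower when they differed. Of 24 such genes 7 were lower and none higher in ACAT1 KO cells after LPS, with a median of -0.18, and none was called without LPS. The 7 were Slc38a2, Slc1a4, Slc7a7, Slc6a12, Slc7a8, Slc7a1 and Slc6a6. Slc7a7, which exchanges arginine and other cationic amino acids with Slc3a2 as its partner, had 30.0, 33.7 and 30.2 CPM in WT and 21.1, 20.7 and 19.2 CPM in ACAT1 KO cells, a difference of -0.60 (SE 0.07, adjusted p = 0.00312). Slc7a1 had 218, 199.8 and 189.7 and 162, 163 and 145 CPM, with -0.35 (SE 0.07, adjusted p = 0.0174). Slc38a2 had 525, 308 and 308 and 241, 203 and 210.0 CPM, with -0.78 (SE 0.20, adjusted p = 0.0349), and without the high WT replicate 1 the difference was -0.48. The genotypes did not overlap for any of the 3, as for 37.8% of all genes. Slc7a2 was not among them, at 0.20 (SE 0.15, adjusted p = 0.397), nor were Slc7a5, at -0.20 (SE 0.07, adjusted p = 0.082), and Slc3a2, at 0.00 (SE 0.07, adjusted p = 0.998). Slc38a2, Slc1a4 and Slc7a1 each passed in 3 of 6 fits that left out a library. Across the alternative fits the class gave between 1 and 8 lower and at most 1 higher after LPS, and between 0 and 7 lower and none higher without LPS, so a difference between the states is not shown. With the replicate number as a block Slc16a10 was higher after LPS, at 0.23 (adjusted p = 0.0468), and the metal carrier Slc11a1 lower, at -0.30 (adjusted p = 0.0223).

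**Figure D4:**
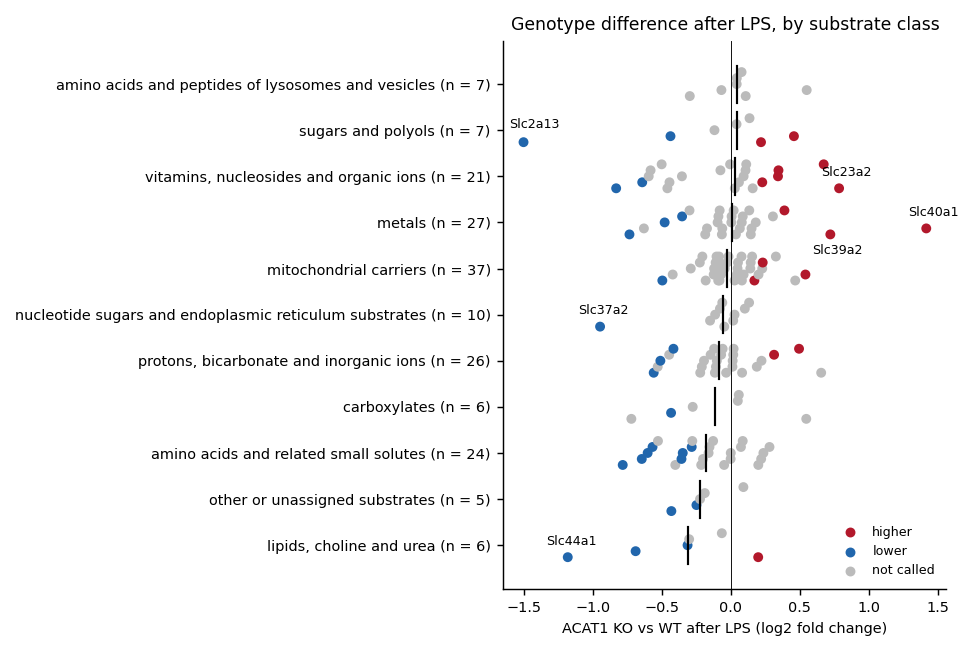
Log2 difference of ACAT1 KO from WT after LPS (x axis) for each of the 176 solute carrier genes, by substrate class (y axis), with black bars at class medians, red points called higher, blue lower and grey not called, and vertical offsets within a class without meaning. Every coloured point among the amino acids is blue, and Slc40a1 lies farthest to the right.

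The largest falls lay in other classes. Slc44a1, on chromosome 4, 53440413 to 53622478, plus strand, had 56.3, 50.2 and 39.3 CPM in WT and 21.7, 22.5 and 19.2 CPM in ACAT1 KO cells after LPS, a difference of -1.18 (SE 0.13, adjusted p = 0.00277). Slc37a2, on chromosome 9, 37227585 to 37255738, minus strand, had 136, 118 and 111 and 54.7, 65.5 and 66.3 CPM, with -0.95 (SE 0.10, adjusted p = 0.00269). Slc22a15, a transporter of organic ions such as carnitine, had 5.48, 5.31 and 4.82 and 2.78, 2.99 and 2.87 CPM, with -0.83 (SE 0.10, adjusted p = 0.00332). All 3 passed whichever library was left out. Their genotypes did not overlap, as for 37.8% of all genes. Slc44a1 and Slc37a2 share 310 and 241 exon bases with a gene of the other strand. Slc41a2, a magnesium transporter, differed by -0.73 (SE 0.16, adjusted p = 0.0244) and passed in 2 of 6 such fits. Slc2a13, which carries myo-inositol, had the lowest value of those called, -1.50 (SE 0.26, adjusted p = 0.0108), at a level of 0.25 to 1.21 CPM. The lysosomal nucleoside transporter Slc29a3 had 27.8, 24.5 and 23.5 CPM in WT and 13.7, 17.8 and 16.3 CPM in ACAT1 KO cells, with -0.64 (SE 0.11, adjusted p = 0.00968). Slc9a4, Slc16a7 and Slc19a2, which differed without LPS, kept their direction, at -0.51, -0.43 and 0.34 (adjusted p = 0.0219, 0.0237 and 0.0408), but passed in 2, 1 and 2 of 6 fits that left out a library. Slc25a45, the other carrier called higher without LPS, had a value of 0.14 (SE 0.08, adjusted p = 0.283) after LPS and did not pass.

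**Figure D5:**
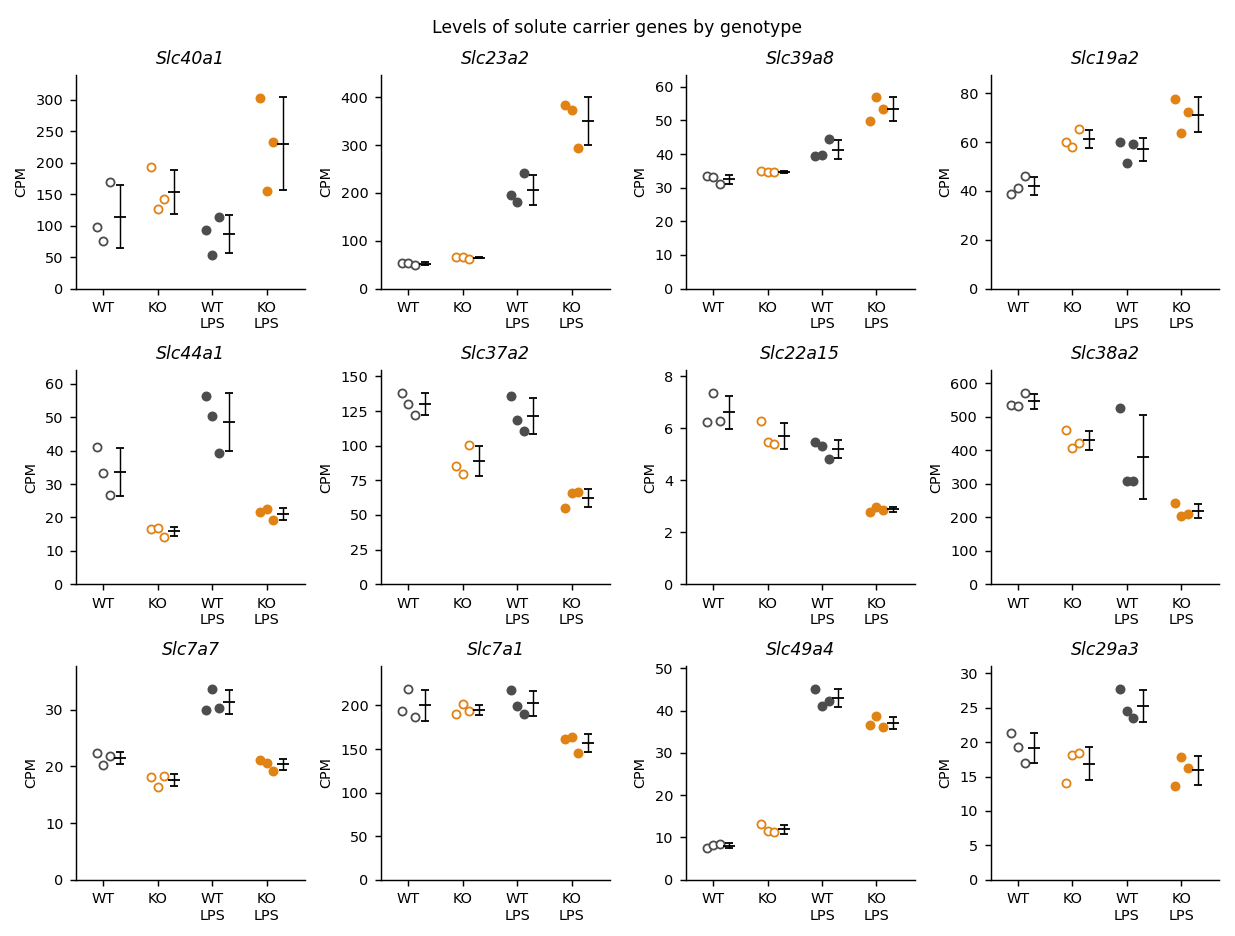
CPM (y axis, linear from 0) of 12 solute carrier genes in each library, WT in grey and ACAT1 KO in orange, open circles without and filled circles with LPS, with the mean and SD of the 3 libraries beside them. Slc44a1 and Slc37a2 are lower in ACAT1 KO cells in both states, Slc23a2 is higher in both states, Slc40a1 separates after LPS, and Slc49a4 changes order between the states.

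Among the mitochondrial carriers, 3 of 37 were higher and 1 lower in ACAT1 KO cells after LPS. Of all genes tested, 5.93% were higher and 9.12% lower. The oxoglutarate carrier Slc25a11, Slc25a4 and Slc25a35 were higher, at 0.23, 0.17 and 0.54 (adjusted p = 0.0275, 0.0477 and 0.049), and Slc25a24 was lower, at -0.50 (SE 0.09, adjusted p = 0.0121). With the replicate number as a block Slc25a4 did not pass (adjusted p = 0.0774). Slc33a1, the acetyl-CoA carrier, had log2 differences of 0.08 (SE 0.10, adjusted p = 0.733) without and 0.13 (SE 0.08, adjusted p = 0.322) with LPS. Those of the dicarboxylate carrier Slc25a10 were 0.28 (SE 0.08, adjusted p = 0.113) and 0.23 (SE 0.08, adjusted p = 0.104).

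Genes of chromosome 12 were lower and those of chromosome 2 from 90 Mb higher as groups in ACAT1 KO cells, with medians of -0.28 and 0.28 after LPS. These segments hold 3 and 12 of the solute carriers. Among those called higher after LPS, Slc23a2, Slc28a2 and Slc9a8 lie on distal chromosome 2, and of the 25 called lower Slc39a9 lies on chromosome 12 and Slc30a4 on distal chromosome 2. With the replicate number as a block Slc9a8 did not pass (adjusted p = 0.0831). The part of these segments in the differences of genes that lie on them was not tested. A fit without both segments gave 8 higher and 20 lower of the other 161. Genes called on the segments are not in that fit, so its counts are not like for like with 16 and 25. Among 17 tested genes with other solute carrier symbols, mostly of the Slc35 family, 2 were higher after LPS, Slc35b1 and Slc35c2, and 3 lower, Slc35e3, Slc35e4 and the mitochondrial sodium and calcium exchanger Slc8b1.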

How the data were processed

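RNA of J774A.1 cells, WT or ACAT1 KO, unstimulated or after 2 hours of LPS, was measured in 12 libraries, 3 per group. The deposited values used here are whole-number counts per gene, 1 table per state, which the authors made from reads trimmed with Trimmomatic (version 0.33) and aligned to GRCm38 with HISAT2, with StringTie among the named tools. How whole counts were obtained, and whether strand was used, is not given in the sources used here. The tables also hold the authors' own comparison columns (log fold change, mean, t, p-values and B) and 6 per-library columns each of log values, 12 in all, which were not used. A gene is listed only with counts in most libraries of its state, and repeated entries of a gene, 59 and 57, held 1 set of counts and were merged.

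edgeR (version 4.0.16, R 4.3.3) was run with TMM normalization, its expression filter and the quasi-likelihood test, with Benjamini-Hochberg adjustment over all genes tested and a threshold of 0.05. ACAT1 KO was compared with WT within each state on its own table. LPS and the interaction were tested on the 12 libraries together over genes in both tables. The LPS contrasts compare different libraries in WT and ACAT1 KO cells, but share the spread and scaling of 1 fit to all 12 libraries. The interaction and the genotype comparisons use the same libraries as the LPS contrasts. CPM are on the joint TMM scale, and values per kb divide by the exon length of GENCODE M21. Genome positions are GRCm38. DESeq2 (version 1.42.0) and limma-voom (version 3.58.1) were alternatives, as were other scalings and filters, leaving out each library, leaving out or modelling the 3 shallow libraries, and leaving out chromosome 12 and distal chromosome 2. Class counts under each alternative were added after seeing the data. On simulated data with 200 genes changed by 1 on the log2 scale, edgeR recovered 129 for LPS in WT (16410 genes), 120 for LPS in ACAT1 KO (16434 genes), 106 for genotype without LPS (16249 genes), 146 for genotype after LPS (16274 genes) and 96 for the interaction (16434 genes). Of the calls made there, 3.73% for LPS in WT and 4% for LPS in ACAT1 KO cells fell on unchanged genes. For genotype these shares were 7.83% without and 7.01% after LPS, above the share set by the threshold of 0.05. For the interaction the share was 2.04%. With LPS, 57.4% of all genes were called in WT and 60.7% in ACAT1 KO cells, and recovery with so many changed genes was not tested. Totals were 56948593 to 167280149 counts per library.

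Deviations from the group means of same-numbered libraries correlated across states within a genotype at 0.155 to 0.349, and between genotypes after LPS at 0.101 to 0.336. Both thus met the criterion for pairing by number, from the data and not from a stated batch. Whether a number marks a line or something else that same-numbered libraries share was not tested. The calls reported come from fits without the block, and the blocked value is given with named results whose call it changes. Between genotypes without LPS the values were -0.0841, 0.587 and 0.426, and the numbers were not taken to pair.

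The genes, classes and lists were chosen with earlier results of these data known. Named genes are those that passed, averaged 1 CPM or more and had the 8 largest and 8 smallest changes for LPS in WT or the 5 largest and 5 smallest in each other comparison, a set of 27 genes of macrophage metal, amino acid, peptide, sugar and mitochondrial transport, and genes in counts of 5 or fewer. Others, such as Slc2a13, Slc7a7, Slc38a1 and Slc24a5, were chosen after their values were seen. A result for 1 gene that the rule names is not reported here.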

Additional observations from a re-analysis of the deposited data

Results flagged for a closer look

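The response of Slc49a4 to LPS differed between genotypes by the interaction test, with a value of -0.77 (SE 0.11, edgeR adjusted p = 0.0323). Per pair of same-numbered libraries the log2 ratio of LPS to unstimulated was 2.58, 2.32 and 2.32 in WT and 1.49, 1.75 and 1.69 in ACAT1 KO cells. Slc40a1 moved in opposite directions, with log2 ratios of -0.07, -0.48 and -0.57 in the 3 WT pairs and 0.65, 0.30 and 0.71 in the 3 ACAT1 KO pairs. Its interaction of 0.97 did not pass without the line as a block (edgeR adjusted p = 0.607) and passed with it (adjusted p = 0.0269). Pairing of the libraries by line was read from the data and is not stated in the labels.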

How the results depend on the processing

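The counts of solute carriers changed by LPS stayed within 1.5 times under every alternative, between 120 and 125 in WT and 123 and 130 in ACAT1 KO cells with 1 library left out, and at 142 and 140 with the line as a replicate block. Upper-quartile normalization moved the splits to 46 higher and 87 lower in WT and 44 and 88 in ACAT1 KO cells. Genotype calls without LPS, 6, were least stable, with 32 by DESeq2, 22 with all 12 libraries in 1 fit, 13 with a term for the shallow libraries, 11 with at least 10 counts in every library, 2 with the replicate number as a block, 1 without chromosome 12 and distal chromosome 2, 0 without the shallow libraries and 0 to 9 with 1 library left out. Genotype calls after LPS, 41, ranged from 13 to 39 with 1 library left out, all with fewer samples, and were 37 with the replicate block, which gained 6 and lost 10 genes. The all-library fit put 11 higher and 28 lower there, and the fit without both segments, which drops genes called on them, 8 and 20. The interaction, 1 call, gave 6 by DESeq2, all lower, 5 with the replicate block, 0 without the shallow libraries and 0 to 1 with 1 library left out. Other alternatives kept each count within 1.5 times, and no named gene changed direction past the threshold. The cause of these shifts was not tested, beyond the fewer samples or genes of some fits. Genes under 1 CPM and the 47 with exons shared with the other strand are the least certain.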

Other observations

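Slc8b1, a mitochondrial sodium and calcium exchanger whose symbol falls outside the rule, had 24.3, 26.7 and 28.3 CPM in WT and 29.5, 26.8 and 31.9 CPM in ACAT1 KO cells without LPS. With LPS it had 59.7, 51.8 and 52.7 CPM in WT and 35.3, 37.4 and 36.3 CPM in ACAT1 KO cells. Its interaction of genotype and LPS was -0.74 (SE 0.12, adjusted p = 0.0383) on the log2 scale by edgeR's quasi-likelihood test, and it was the 1 of 18 such symbols to pass. The 11 solute carriers of the rule under the count minimum were not tested as members.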
